A study of Homo sapiens with 6 samples.

Results

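HLA class I molecules are the surface proteins by which nearly every nucleated cell shows pieces of its own proteins to cytotoxic T cells. The values described here are those of 9 genes of this system, taken by name out of the 60658 genes quantified: the heavy chains HLA-B, HLA-C, HLA-E and HLA-F, the shared light chain B2M, both chains of the peptide transporter, TAP1 and TAP2, the loading chaperone tapasin (TAPBP) and the transcriptional activator NLRC5. All 9 were matched from their Ensembl identifiers, and all 9 lay above 0.1 FPKM (the unit of the deposited levels, which corrects fragment numbers for transcript length and library size) in at least 1 library of every comparison, which was the filter on low values. RNA was sequenced from a pair of castration-resistant prostate cancer cell lines, with 1 library for each of 6 conditions. C4-2B MDVR cells, enzalutamide-resistant cells derived from C4-2B and kept in medium with 20 µM of the androgen receptor antagonist enzalutamide, and CWR22Rv1 cells, for which no enzalutamide is stated, each received DMSO alone, 10 µM apoptozole (APO) or 10 µM VER155008 (VER) for 48 h. Both compounds inhibit the ATPase activity of the chaperone HSP70. The titles name C4-2B MDVR, although the source field of the same 3 libraries reads LNCaP-C4-2B and their cell type field reads parental, so the titles were followed. Each line is a single established model, and the lines differ in origin as well as in exposure to enzalutamide, which cannot be told apart.

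Class I heavy chains fold with B2M in the endoplasmic reticulum, where tapasin, calreticulin and ERp57 hold them beside the TAP1/TAP2 transporter until a peptide from the proteasome is bound. HLA-B and HLA-C are classical, highly polymorphic heavy chains, HLA-E presents leader peptides of other class I chains to NKG2A receptors of natural killer cells, and HLA-F is a less polymorphic chain with a restricted expression. Interferon raises most of these genes through interferon-stimulated response elements bound by IRF factors and through NLRC5, which acts at the promoters of class I genes together with RFX, CREB and NF-Y proteins, and loss of class I is a common way for tumors to avoid T cells.

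The promoters of the members the results turn on are shown first, because they let a reader see which control elements these genes share. RefSeq sequences of the 250 bases before the start site on GRCh38.p14 were found for 7 of the 9 members, all except HLA-E and NLRC5. Capitals mark matches, on either strand, to 4 motifs: the interferon-stimulated response element core (GAAA, any 2 bases, GAAA), the NF-kappaB consensus, the CRE half-site TGACG and the CCAAT box. Overlapping matches run together.
HLA-B (chr6:31357180-31357429, minus strand): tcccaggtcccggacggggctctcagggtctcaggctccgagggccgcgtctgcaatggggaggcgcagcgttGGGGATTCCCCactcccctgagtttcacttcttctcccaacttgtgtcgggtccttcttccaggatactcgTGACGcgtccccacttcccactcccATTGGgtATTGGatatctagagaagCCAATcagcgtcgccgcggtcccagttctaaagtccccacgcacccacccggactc
HLA-C (chr6:31272093-31272342, minus strand): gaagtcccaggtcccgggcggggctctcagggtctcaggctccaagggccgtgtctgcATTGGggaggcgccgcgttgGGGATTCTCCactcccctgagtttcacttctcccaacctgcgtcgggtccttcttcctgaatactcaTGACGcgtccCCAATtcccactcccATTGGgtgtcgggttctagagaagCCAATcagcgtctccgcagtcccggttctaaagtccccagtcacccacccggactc
HLA-F (chr6:29723184-29723433, plus strand): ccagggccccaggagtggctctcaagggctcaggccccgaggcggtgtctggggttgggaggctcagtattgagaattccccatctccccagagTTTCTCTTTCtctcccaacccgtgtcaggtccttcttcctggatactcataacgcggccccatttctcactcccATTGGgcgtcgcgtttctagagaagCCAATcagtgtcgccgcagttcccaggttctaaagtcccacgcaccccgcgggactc
TAP1 (chr6:32853705-32853954, minus strand): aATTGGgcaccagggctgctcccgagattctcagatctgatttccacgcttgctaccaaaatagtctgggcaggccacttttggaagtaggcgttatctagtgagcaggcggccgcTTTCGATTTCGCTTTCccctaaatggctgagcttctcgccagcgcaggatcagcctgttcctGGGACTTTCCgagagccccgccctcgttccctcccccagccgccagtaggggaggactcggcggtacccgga
TAP2 (chr6:32838740-32838989, minus strand): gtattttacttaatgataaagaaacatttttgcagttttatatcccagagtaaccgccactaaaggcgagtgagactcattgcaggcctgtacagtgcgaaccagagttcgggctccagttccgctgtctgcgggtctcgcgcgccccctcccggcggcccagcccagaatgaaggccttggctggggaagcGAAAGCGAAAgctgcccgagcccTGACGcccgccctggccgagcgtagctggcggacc

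The HLA-B and HLA-C windows were 89.0% identical after alignment, and the HLA-F window was 79.8% identical to that of HLA-B and 78.2% to that of HLA-C. Every other pair of the 7 windows lay between 41.6% and 49.2%. The interferon-stimulated response element core was found in 5 of the 7 windows (HLA-F, B2M, TAP1, TAP2 and TAPBP) and in 3.02% of 35116 RefSeq promoter windows of the same length. The NF-kappaB consensus was found in HLA-B, HLA-C, B2M, TAP1 and TAPBP and in 9.96% of all windows. The CRE half-site was found in HLA-B, HLA-C, B2M and TAP2 against 21.2%, and the CCAAT box in HLA-B, HLA-C, HLA-F, B2M and TAP1 against 32.0%. These are matches of letters and not measured sites, and a window without a match says only that these letters were not in it. GENCODE 29 places the outer end of the TAP1, HLA-F and TAPBP genes further upstream than RefSeq does, so these windows lie wholly within the GENCODE genes. TAP1 has 2 RefSeq entries, of which the first was used.

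**Figure D1:**
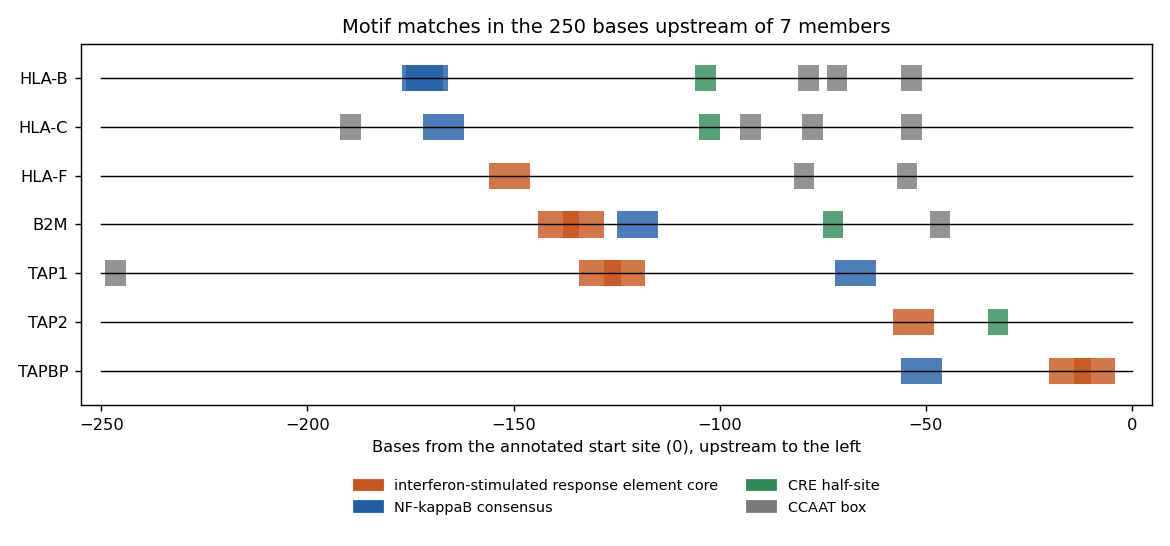
Position of motif matches in the 250 bases before the RefSeq start site of 7 members (x axis: bases from the start site, 1 line per gene, 1 color per motif). HLA-B and HLA-C carry NF-kappaB and CRE matches at nearly the same distances, and the interferon-stimulated response element core appears in the other 5 genes.

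The libraries were compared in depth and in markers of other cell types. From the smallest steps among low values, the other 5 libraries were estimated at 1.10 to 1.60 times the depth of the C4-2B MDVR DMSO library, with C4-2B MDVR with APO the deepest. All 8 prostate and epithelial markers were above 0 in all 6 libraries, with a summed level of 824 to 1207 FPKM. Leukocyte markers, of interest because leukocytes are rich in class I, summed to 0.145 to 1.65 FPKM, with 6 to 8 of the 10 at 0. CD3D, MS4A1, CD2 and NKG7 were at 0 in all 6 libraries, and PTPRC, the pan-leukocyte antigen CD45, was at 0 in 5 of 6. Fibroblast and endothelial markers summed to 7.19 to 11.3 FPKM in C4-2B MDVR and 18.2 to 31.9 FPKM in CWR22Rv1, with PECAM1 at 0 throughout and 1 to 3 of the 7 at 0 in each library. LUM, an extracellular matrix proteoglycan, made up most of the sum in CWR22Rv1, at 23.9 FPKM with DMSO, 13.1 FPKM under APO and 26.2 FPKM under VER, and lay between 0.0283 and 0.274 FPKM in C4-2B MDVR. COL1A1 measured 6.68 to 10.8 FPKM in C4-2B MDVR and 3.32 to 3.78 FPKM in CWR22Rv1. The part of these markers in the line differences was not tested. Mitochondrial transcripts took 14.8 to 16.4% of all FPKM in C4-2B MDVR, 25.7% in CWR22Rv1 with DMSO and with VER, and 10.4% in CWR22Rv1 with APO, and their part in the results was not tested. With 1 library per condition no spread between cultures of a condition can be measured, and no test was made. Differences are given on the scale of log2(FPKM + 0.1), a gene passed the threshold when its difference exceeded 2-fold, and "rose" and "fell" are used only past it. The share of all genes past the threshold is given with the first count of each comparison and is the background for all counts of that comparison. In bulk RNA, fewer cells expressing a gene and less RNA per cell cannot be told apart.

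**Figure D2:**
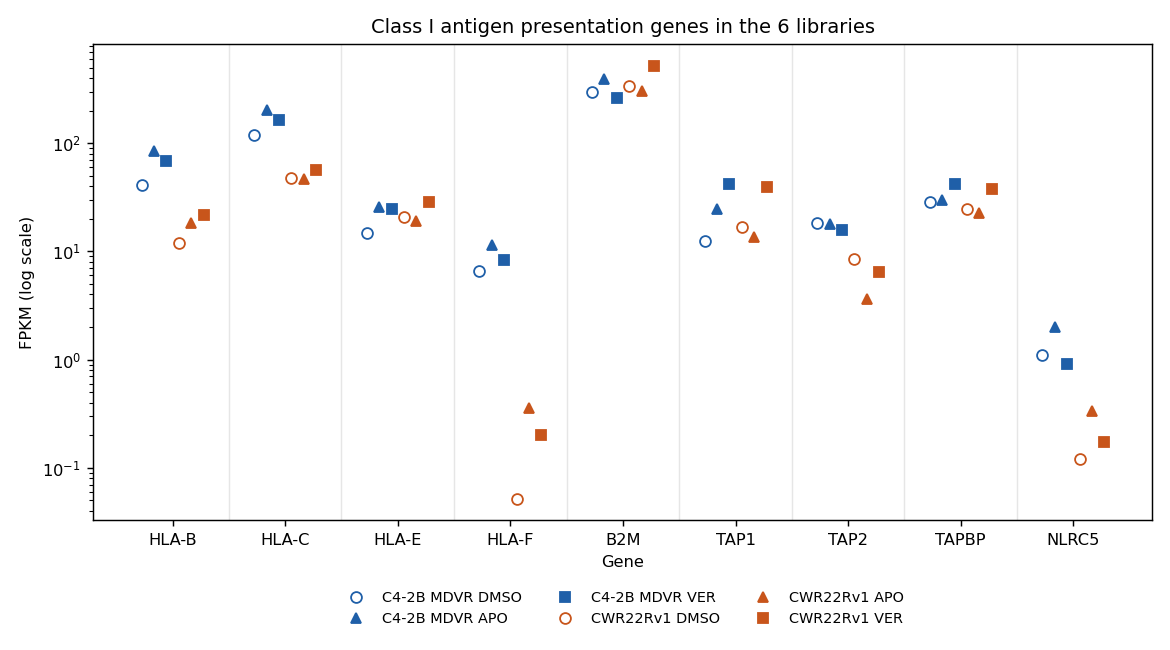
Level of the 9 members in the 6 libraries (y axis: FPKM on a log scale; color: cell line; open circle: DMSO; triangle: APO; square: VER; each point is 1 library). B2M was the highest member in every library, and HLA-F and NLRC5 were the lowest in every library of both lines.

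The first comparison asked how the lines differ with DMSO and no HSP70 inhibitor, C4-2B MDVR being kept in medium with enzalutamide. With DMSO, 5 of the 9 members were more than 2-fold lower in CWR22Rv1 than in C4-2B MDVR, namely HLA-B, HLA-C, HLA-F, TAP2 and NLRC5, and none was more than 2-fold higher. Among all 20903 genes tested, 19.4% were lower and 27.2% were higher by more than 2-fold. The median log2 difference (CWR22Rv1 minus C4-2B MDVR) of the members was -1.07, beside 0.05 for all genes. The other 4 members, HLA-E, B2M, TAP1 and TAPBP, differed by less than 2-fold, so the lines differed in part of the pathway and not along its whole length.

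Among the heavy chains, HLA-B (ENSG00000234745, chr6:31269491-31357188, coordinates of GENCODE 29 on GRCh38) measured 41.0 FPKM in C4-2B MDVR and 12.1 FPKM in CWR22Rv1 with DMSO, a log2 difference of -1.75. With APO the levels were 84.4 and 18.5 FPKM, and with VER 68.0 and 21.7 FPKM. The lowest C4-2B MDVR library therefore lay above the highest CWR22Rv1 library. HLA-C (ENSG00000204525, chr6:31268749-31272130) was the most abundant heavy chain of the 4 in all 6 libraries, at 119 FPKM in C4-2B MDVR with DMSO, 201 FPKM with APO and 164 FPKM with VER. In CWR22Rv1 it measured 47.3 FPKM with DMSO, 46.5 FPKM with APO and 56.7 FPKM with VER, and the log2 difference between the lines with DMSO was -1.33. HLA-C again did not overlap between the lines.

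HLA-F (ENSG00000204642, chr6:29722775-29738528) differed most between the lines. It measured 6.60 FPKM in C4-2B MDVR with DMSO, 11.6 FPKM with APO and 8.39 FPKM with VER. In CWR22Rv1 it was close to the floor of the measurement, at 0.0517 FPKM with DMSO, 0.354 FPKM with APO and 0.199 FPKM with VER. Converted with the estimated depth, these CWR22Rv1 values correspond to 1, 9 and 5 fragments, against 141 in C4-2B MDVR with DMSO. The ratio of C4-2B MDVR to CWR22Rv1 with DMSO was 128, with a 95% counting interval of 27.3 to 6159, and was 32.7 (17.5 to 74.1) with APO and 42.1 (18.5 to 136) with VER. These intervals are conditional binomial (Clopper-Pearson), rest on estimated fragments and cover counting error only. The log2 difference with DMSO, -5.46, depends on the pseudocount and was -2.85 with a pseudocount of 1 and -6.74 with 0.01. A pseudogene on the opposite strand inside HLA-F, RPL23AP1, was also higher in C4-2B MDVR (1.07, 1.68 and 1.44 FPKM with DMSO, APO and VER) than in CWR22Rv1 (0, 0 and 0.0489 FPKM), and the antisense gene HLA-F-AS1 measured 1.07, 1.48 and 1.44 FPKM against 0.637, 0.105 and 1.51 FPKM. Whether strand was used in quantification is not stated, so reads of HLA-F and its antisense partners cannot be told apart where they overlap.

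HLA-E (ENSG00000204592, chr6:30489467-30494205) did not share this order of the lines. It measured 14.8 FPKM in C4-2B MDVR with DMSO, 25.9 FPKM with APO and 24.6 FPKM with VER, and 20.9, 19.2 and 28.7 FPKM in CWR22Rv1. The values of the lines overlapped, and the log2 difference with DMSO was 0.49. The summed level of the 4 heavy chains in C4-2B MDVR was 181 FPKM with DMSO, 323 FPKM with APO and 265 FPKM with VER, and 80.3, 84.5 and 107 FPKM in CWR22Rv1.

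B2M (ENSG00000166710, chr15:44711487-44718877), without which most heavy chains do not reach the surface, did not follow HLA-B, HLA-C and HLA-F. It measured 300.4 FPKM in C4-2B MDVR with DMSO, 393 FPKM with APO and 261 FPKM with VER. The CWR22Rv1 levels were 338, 306 and 522 FPKM in the same order, which overlapped those of C4-2B MDVR, and the log2 difference with DMSO was 0.17. The ratio of B2M to the summed heavy chains was 1.66, 1.22 and 0.983 in C4-2B MDVR and 4.21, 3.62 and 4.86 in CWR22Rv1, so light chain RNA stood higher relative to the 4 heavy chains in all 3 CWR22Rv1 libraries.

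The chains of the peptide transporter, which work as a pair in the membrane, differed in pattern. TAP2 (ENSG00000204267, chr6:32821833-32838780) measured 18.2 FPKM in C4-2B MDVR with DMSO, 17.8 FPKM with APO and 15.6 FPKM with VER, and 8.59, 3.66 and 6.42 FPKM in CWR22Rv1, with no overlap and a log2 difference of -1.07 with DMSO. This value lay just past the threshold, and it fell short of it, at -0.96 and -0.95, when the libraries were scaled to a median ratio of 1 or to the same sum outside the mitochondrial chromosome. TAP1 (ENSG00000168394, chr6:32845209-32853978) measured 12.6, 24.8 and 42.2 FPKM in C4-2B MDVR and 16.8, 13.5 and 39.2 FPKM in CWR22Rv1, which overlapped, with a log2 difference of 0.41 with DMSO. The ratio of TAP1 to TAP2 in C4-2B MDVR was 0.692 with DMSO, 1.39 for APO and 2.70 for VER, and 1.95, 3.69 and 6.11 in CWR22Rv1. TAPBP (ENSG00000231925, chr6:33299694-33314387) had the smallest ratio of highest to lowest library among the members, 1.85, at 28.5, 30.0 and 41.7 FPKM in C4-2B MDVR and 24.6, 22.5 and 38.0 FPKM in CWR22Rv1, with a log2 difference of -0.22 with DMSO.

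NLRC5 (ENSG00000140853, chr16:56989485-57083531), the activator of class I genes, measured 1.10 FPKM in C4-2B MDVR with DMSO, 2.00 FPKM with APO and 0.909 FPKM with VER. In CWR22Rv1 it measured 0.121, 0.333 and 0.172 FPKM, an estimated 13, 40 and 21 fragments, and the lines did not overlap. With DMSO the log2 difference was -2.44, which fell short of 2-fold at -0.91 with a pseudocount of 1, and the ratio of C4-2B MDVR to CWR22Rv1 was 9.11 with a counting interval of 5.17 to 17.8. The members that did not overlap between the lines were thus HLA-B, HLA-C, HLA-F, TAP2 and NLRC5, 5 of 9 with C4-2B MDVR above, and 0 of 9 with CWR22Rv1 above. Among all 23671 genes above 0.1 FPKM in any library, all 3 C4-2B MDVR libraries lay above all 3 CWR22Rv1 libraries for 19.1%, and the reverse held for 21.8%. The 3 libraries of a line had different treatments and are not replicates.

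Of the 9 members, 7 lie in the major histocompatibility complex on the short arm of chromosome 6, from HLA-F to TAPBP (chr6:29722775-33314387, GENCODE 29 on GRCh38), while B2M lies on chromosome 15 and NLRC5 on chromosome 16. The same stretch holds 141 other protein-coding genes, of which 116 passed the filter with DMSO. Of these, 33 (28.4%) were more than 2-fold higher and 12 (10.3%) more than 2-fold lower in CWR22Rv1, beside 22.4% and 16.9% of all protein-coding genes, and their median log2 difference was 0.39, beside 0.00 for all 15036 protein-coding genes tested. The median of the 7 members inside the stretch was -1.07.

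**Figure D3:**
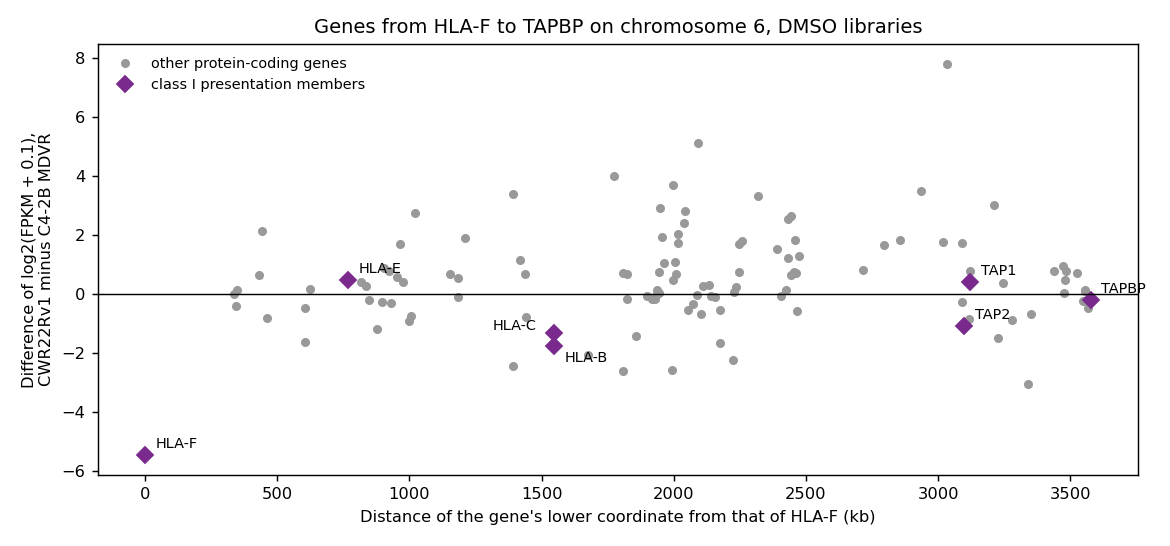
Difference between the lines with DMSO for protein-coding genes from HLA-F to TAPBP (x axis: distance in kb from the lower coordinate of HLA-F; y axis: log2 difference, CWR22Rv1 minus C4-2B MDVR; diamonds: members; gray dots: other genes). HLA-F at -5.46, HLA-B at -1.75, HLA-C at -1.33 and TAP2 at -1.07 lie below 0. The other genes have a median of 0.39 over the whole stretch, which is not the median of the genes nearest to each member.

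The next comparisons asked what each HSP70 inhibitor did in each line. APO and VER of a line share the same DMSO library, so the values are given side by side and agreement between them was not counted as separate evidence. HLA-B and HLA-F were higher than with DMSO in all 4 comparisons, and the other 6 members apart from TAP2 did not keep 1 direction. TAP2 was lower in all 4, but with APO in C4-2B MDVR only by -0.03, a ratio of 0.978 with a counting interval of 0.884 to 1.08. The share of all genes that keep 1 direction was not computed, so these counts have no background. The HLA-F values in CWR22Rv1 rest on few fragments. In each comparison 1 or 2 members passed 2-fold.

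With APO in C4-2B MDVR, HLA-B rose by 1.04 on the log2 scale, from 41.0 to 84.4 FPKM, and was the only member past 2-fold. This is 1 of 9 members up and 0 down, beside 16.0% up and 13.9% down among 19316 genes. HLA-B was just past the threshold, and it fell short of it at 0.89 with scaling to the same total and at 0.88 with scaling to the same total outside the mitochondrial chromosome. The log2 differences of TAP1 (0.97), HLA-E (0.80), HLA-F (0.80), NLRC5 (0.80) and HLA-C (0.76) were slightly smaller. B2M stood at 0.39, TAPBP at 0.07, which became -0.07 and -0.09 under the same scalings, and TAP2 at -0.03. The median of the members was 0.80, beside 0.02 for all genes.

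With VER in C4-2B MDVR, TAP1 rose by 1.74 on the log2 scale, from 12.6 to 42.2 FPKM. It was the only member past 2-fold, 1 of 9 up and 0 down, beside 15.2% up and 14.0% down among 19154 genes. The log2 differences of HLA-B (0.73), HLA-E (0.72), TAPBP (0.55), HLA-C (0.47) and HLA-F (0.34) were above 0, and those of B2M (-0.20), TAP2 (-0.22) and NLRC5 (-0.26) were below 0. The median was 0.47, beside -0.01 for all genes.

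With APO in CWR22Rv1, TAP2 fell by 1.21 on the log2 scale, from 8.59 to 3.66 FPKM. HLA-F passed 2-fold upward at 1.58, but on an estimated 9 fragments against 1, with a ratio of 6.84 and a counting interval of 1.12 to 354, and it stood at 0.36 with a pseudocount of 1. These are 1 of 9 up and 1 down, beside 14.4% up and 17.6% down among 20635 genes. NLRC5 stood at 0.97, from an estimated 13 to 40 fragments, a ratio of 2.74 (1.45 to 5.62). HLA-B stood at 0.61. HLA-C (-0.02, which became 0.09 with scaling to the same total), HLA-E (-0.12), TAPBP (-0.13), B2M (-0.14) and TAP1 (-0.31) were near or below 0. The median was -0.12, beside -0.05 for all genes, so the members as a group did not stand above the rest here. The protein-coding gene AL669918.1, which overlaps TAP2 on the same strand, measured 1.04 FPKM with DMSO and 0.244 FPKM with APO. Of 114 other protein-coding genes from HLA-F to TAPBP, 24.6% fell and 8.77% rose, beside 12.9% and 11.0% of all protein-coding genes. The part of either in the TAP2 value was not tested.

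With VER in CWR22Rv1, TAP1 rose by 1.22 on the log2 scale, from 16.8 to 39.2 FPKM, again the only member past 2-fold. This is 1 of 9 up and 0 down, beside 11.3% up and 9.29% down among 20751 genes. HLA-F stood at 0.98 on an estimated 5 fragments against 1, with a ratio of 3.85 and a counting interval of 0.505 to 213. HLA-B (0.84), TAPBP (0.63), B2M (0.63), HLA-E (0.46), NLRC5 (0.30) and HLA-C (0.26) were above 0, and TAP2 (-0.41) was below 0. The median was 0.63, beside -0.02 for all genes.

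**Figure D4:**
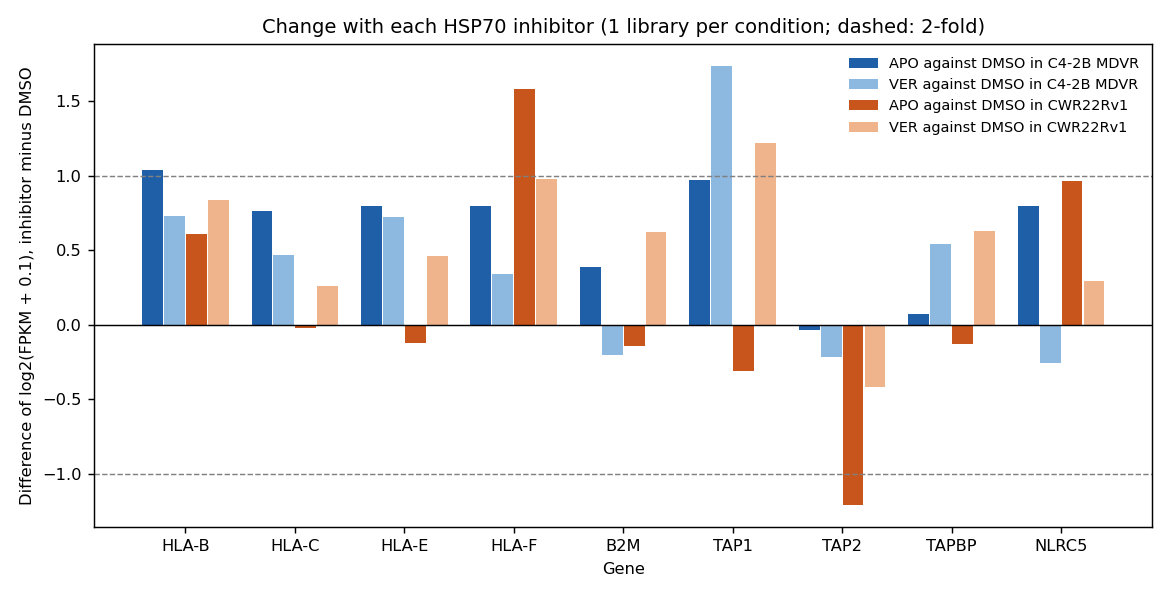
Change of each member with APO or VER in each line (y axis: difference of log2(FPKM + 0.1), inhibitor minus DMSO; dashed lines: 2-fold; each bar is 1 library against 1 library, so there are no error bars). TAP1 passes 2-fold with VER in both lines (1.74 and 1.22), HLA-B with APO in C4-2B MDVR (1.04), and TAP2 falls past 2-fold with APO in CWR22Rv1 (-1.21).

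At lower thresholds a large share of all genes passed as well. At 1.5-fold in either direction, 6 members passed with APO in C4-2B MDVR beside 49.8% of all genes, 3 with VER in C4-2B MDVR beside 47.9%, 4 with APO in CWR22Rv1 beside 53.0%, 5 with VER in CWR22Rv1 beside 37.6%, and 5 between the lines with DMSO beside 64.2%. At 1.2-fold, 7, 6, 5, 8 and 7 of the 9 members passed in the same order, beside 74.9%, 72.9%, 77.2%, 66.0% and 82.4% of all genes.

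The inhibitors were used at the same dose and time and were set against each other directly. TAP1 was higher with VER than with APO in both lines, by 0.76 on the log2 scale in C4-2B MDVR and by 1.53 in CWR22Rv1. TAPBP was higher with VER as well, by 0.47 and 0.75. NLRC5 was lower with VER than with APO, at -1.06 and -0.67. B2M differed in sign, at -0.59 in C4-2B MDVR and 0.77 in CWR22Rv1, and so did TAP2 at -0.19 and 0.79. HLA-B stood at -0.31 and 0.23, HLA-C at -0.29 and 0.28, HLA-E at -0.08 and 0.58, and HLA-F at -0.46 and -0.60. In CWR22Rv1 the HLA-F value rests on an estimated 5 against 9 fragments, a ratio of 0.564 with a counting interval of 0.147 to 1.86. The NLRC5 value there rests on an estimated 21 against 40 fragments, a ratio of 0.516 (0.296 to 0.918).

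TAP1 shares its upstream region with PSMB9, a catalytic subunit of the immunoproteasome transcribed in the opposite direction from a start 488 bases away. PSMB9 measured 0.902 FPKM in C4-2B MDVR with DMSO, 1.05 FPKM with APO and 0.857 FPKM with VER, and 1.62, 0.924 and 1.63 FPKM in CWR22Rv1. The log2 difference with VER was -0.07 and 0.01 for PSMB9, beside 1.74 and 1.22 for TAP1. The ratio of TAP1 to PSMB9 thus went from 14.0 with DMSO to 49.3 with VER in C4-2B MDVR and from 10.3 to 24.0 in CWR22Rv1. PSMB9 was low, between 0.857 and 1.63 FPKM, and its fragments were not estimated. The counting error of its differences and of these ratios is therefore not given. GENCODE 29 shows the genes overlapping on opposite strands.

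Other genes of the pathway were taken from 7 lists. Of the 6 genes of peptide loading and trimming (CALR, CANX, PDIA3, TAPBPL, ERAP1, ERAP2), 6 had a higher level with VER than with DMSO in both lines, beside 49.7% of all genes for C4-2B MDVR and 48.6% for CWR22Rv1. With VER 2 of the 6 rose past 2-fold in each line, beside 15.2% and 11.3% of all genes. With APO 5 of 6 were higher in C4-2B MDVR, beside 51.0% of all genes, and 4 of 6 in CWR22Rv1, beside 48.1%. The trimming aminopeptidase ERAP1, which cuts peptides to the length class I binds, rose with VER by 1.83 in C4-2B MDVR (2.41 to 8.84 FPKM) and by 1.60 in CWR22Rv1 (3.54 to 11.0 FPKM). It also rose with APO in C4-2B MDVR, by 1.63, and stood at 0.61 with APO in CWR22Rv1. TAPBPL, a tapasin-related peptide editor, rose by 1.17 with VER in C4-2B MDVR, and ERAP2, a second trimming enzyme at a low level, rose by 1.17 with VER in CWR22Rv1 and fell by 1.48 with APO in C4-2B MDVR. Calreticulin (CALR) fell by 1.28 with APO in CWR22Rv1, from 1153 to 474 FPKM. Between the lines with DMSO, CANX (1.53) and CALR (1.03) were higher and ERAP2 (-1.81) was lower in CWR22Rv1, the opposite of the members' median for 2 of the 3.

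Of the 5 genes of the immunoproteasome and its PA28 activator, 0 passed 2-fold in any of the 5 comparisons. In C4-2B MDVR their median log2 difference was 0.20 with APO and -0.06 with VER, in CWR22Rv1 it was -0.41 and -0.11, and 0.71 between the lines. Of the 8 RFX, CREB and NF-Y partners of NLRC5, 1 passed 2-fold in 1 comparison, NFYC with APO in CWR22Rv1 at 1.14, and 0 differed by more than 2-fold between the lines with DMSO, where NFYC stood at -0.99, just short of it.

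Of the 15 genes of interferon and NF-kappaB signaling, 4 passed 2-fold upward and 0 downward with APO in C4-2B MDVR, beside 16.0% and 13.9% of all genes, while 9 in all were higher and 6 lower, among them NFKB1 at -0.997, just short of 2-fold. SOCS1, an inhibitor of JAK kinases, rose by 3.67, from 0.492 to 7.43 FPKM. IRF1, which binds interferon-stimulated response elements, rose by 2.54, from 1.53 to 9.39 FPKM. The kinase JAK2 rose by 1.33 and the interferon gamma receptor chain IFNGR1 by 1.02. With VER in C4-2B MDVR, SOCS1 rose by 1.72 and IRF1 by 1.36, and JAK1 fell by 1.09. With APO in CWR22Rv1, JAK2 rose by 1.26 and IFNGR1 by 1.02, and TYK2 fell by 1.27. With VER in CWR22Rv1, 0 of 15 passed 2-fold. Between the lines with DMSO, TYK2 (1.25), SOCS1 (1.12) and IRF9 (1.08) were higher in CWR22Rv1 and 0 were lower past 2-fold.

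HLA-H, a pseudogene close in sequence to the classical heavy chains, measured 6.84 FPKM in C4-2B MDVR and 1.47 FPKM in CWR22Rv1 with DMSO, a log2 difference of -2.14, and rose in C4-2B MDVR by 1.49 with APO and 1.02 with VER. Of the other 3 pseudogenes listed, only HLA-L passed the filter, at 0.746 FPKM or less in the libraries compared. In the reference transcripts, 0% of the 75-base words of HLA-B and HLA-F occurred in another gene, beside 1.98% for HLA-C, 2.02% for HLA-E and 0.208% for TAP1. The alleles of these lines were not examined, and how far they differ from the reference, which would lower the mapped reads of HLA-B and HLA-C, was not tested. In GENCODE 29 the HLA-B gene extends over the HLA-C locus on the same strand, so the split of reads between the pair is uncertain.

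Of the 12 class II presentation genes, 10 passed the filter between the lines with DMSO, 4 higher and 3 lower past 2-fold in CWR22Rv1, beside 27.2% and 19.4% of all genes. HLA-DQB1 was 55.8 FPKM in CWR22Rv1 and 4.78 FPKM in C4-2B MDVR, a log2 difference of 3.52, and HLA-DMB was 13.3 and 1.55 FPKM, a difference of 3.02. HLA-DPA1 was listed at 0 in CWR22Rv1 and measured 0.732 FPKM in C4-2B MDVR. The other calls rest on genes below 3 FPKM in both lines. Further genes of the list were at or near 0 with DMSO. HLA-DQA1 was listed at 0 in both lines, and CIITA measured 0.0295 FPKM in C4-2B MDVR and 0 in CWR22Rv1. HLA-DRA measured 0.131 FPKM in C4-2B MDVR and 0.307 FPKM in CWR22Rv1.

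Of the 11 class I-like genes and NKG2D ligands, stress ligands seen by natural killer cells, 10 passed the filter between the lines with DMSO, 7 lower and 1 higher past 2-fold in CWR22Rv1, beside 19.4% and 27.2% of all genes. ULBP3 (3.90 against 0.129 FPKM, -4.13), ULBP2 (5.05 against 0.449 FPKM, -3.23) and RAET1G (1.18 against 0.121 FPKM, -2.54) were lower in CWR22Rv1, while MICB was listed at 0 in C4-2B MDVR and measured 1.51 FPKM in CWR22Rv1. ULBP1 rose in all 4 inhibitor comparisons, in C4-2B MDVR by 2.17 with APO and by 2.31 with VER, and in CWR22Rv1 by 3.04 and 2.03, where it started from 0.244 FPKM. MR1, a class I-like molecule that presents vitamin metabolites, rose in all 4 as well, by 1.10, 1.43, 1.29 and 1.37. The list did not move as a whole. ULBP2 rose in C4-2B MDVR, by 1.83 with APO and 1.79 under VER, but stood at 0.05 and -0.20 in CWR22Rv1, and with APO in CWR22Rv1 4 of the 8 genes that passed the filter were higher and 4 lower.

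**Figure D5:**
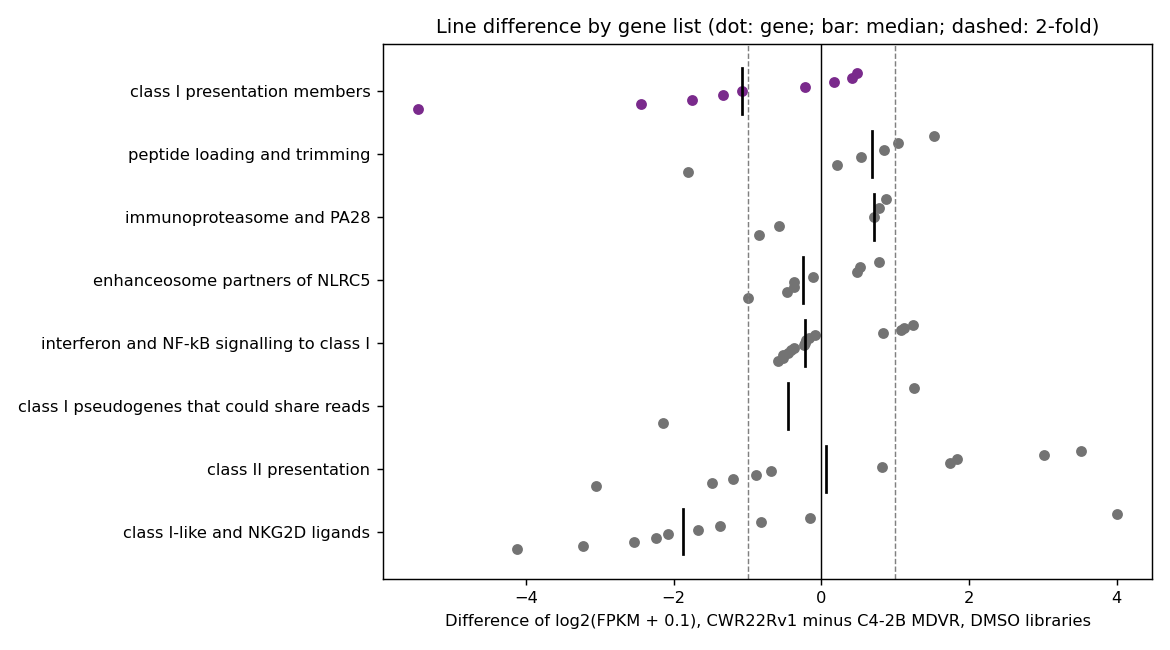
Difference between the lines with DMSO by gene list (x axis: log2 difference, CWR22Rv1 minus C4-2B MDVR; each dot is a gene that passed the filter; bar: median; dashed lines: 2-fold). The class I presentation members have a median of -1.07, beside 0.69 for peptide loading and trimming, 0.71 for the immunoproteasome list and -1.87 for class I-like genes and NKG2D ligands.

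The profiles of the members over the 6 libraries were compared with one another and with 14163 genes of at least 1 FPKM on average, by the root mean square difference of log2 levels centered on each gene. HLA-B and HLA-C were the closest pair of members, at 0.244, followed by HLA-E with TAPBP at 0.285 and HLA-E with B2M at 0.288. HLA-F lay at least 1.42 from every other member, its nearest being NLRC5. TAP1 and TAP2 lay 0.996 apart. Among other genes, the closest was MIR99AHG for HLA-B (0.0838), IL1RAP for HLA-C (0.0938), ZNHIT1 for HLA-E (0.0700), LAMA3 for HLA-F (0.290), TCTE3 for B2M (0.0915), CAPS for TAP1 (0.180), MMP15 for TAP2 (0.112), RNF145 for TAPBP (0.0438) and TMSB4X for NLRC5 (0.0846). TMSB4X, a small actin-binding protein, measured 58.1, 101 and 57.8 FPKM in C4-2B MDVR and 11.4, 22.5 and 14.3 FPKM in CWR22Rv1. With 6 points per profile such nearness is a description.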

How the data were processed

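RNA was extracted after 48 h and sequenced as poly(A)-selected paired-end libraries. Per the labels a KAPA stranded mRNA kit was used, whereas the paper's methods name Illumina TruSeq. The authors aligned reads with HISAT to GRCh38, quantified genes with Cufflinks and deposited FPKM values normalized between libraries by Cuffnorm (tools and build from the submitters' processing notes and the paper). The status column was OK in every row. The annotation release and the use of strand in counting are not given in the sources used here.

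Of 60658 identifiers, 57047 were matched to GENCODE 29, which gave symbols and coordinates, and promoters came from RefSeq (GRCh38.p14). Groups came from the sample titles. Fold changes were differences of log2(FPKM + 0.1), which understate the change of low genes, for genes above 0.1 FPKM in at least 1 of the 2 libraries compared, called above 2-fold. FPKM values are not counts, so no count model was used, and with 1 library per condition no test was made. Depth was estimated from 4735 single-transcript genes of at least 1500 bases, whose low FPKM multiplied by effective length (length minus 200 bases) peak at the value of 1 fragment. Fragments printed are these estimates, and their 95% intervals cover counting error only. Only the fold-change calls were tested on simulated data, made by multiplying levels of the C4-2B MDVR DMSO library by set factors without noise. The depth and fragment estimates, motif search and profile distances were not tested in this way. Named were all 9 members, up to 4 genes per list and comparison with the largest change past 2-fold, and the genes nearest in profile. Exceptions are ERAP1 with APO in CWR22Rv1 and genes given with values short of 2-fold (NFKB1, NFYC between the lines, ULBP2 in CWR22Rv1). Further exceptions are PSMB9, HLA-DQA1, CIITA, HLA-DRA and the genes overlapping HLA-F and TAP2. All exceptions were chosen after their values were seen. The members and lists were chosen with earlier results of these data known. Alternatives were pseudocounts of 0.01 and 1, 3 other filters, 3 other scalings, thresholds of 1.2-fold, used by the study, and 1.5-fold, and the summed heavy chains. Some class I genes are not reported here. Software was Biopython 1.88, matplotlib 3.10.9, numpy 2.4.6, pandas 2.3.3 and scipy 1.17.1 under Python 3.11.15.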

Additional observations from a re-analysis of the deposited data

Results flagged for a closer look

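For 5 members the log2 change with APO had opposite signs in the lines, and for 2 members the change with VER did. With 1 library per condition none of these differences was tested. How often such a change of sign occurs among all genes was not computed, so neither count can be set against a background. The change in C4-2B MDVR minus that in CWR22Rv1 with APO was 1.28 for TAP1 (0.97 and -0.31), 0.92 for HLA-E (0.80 and -0.12), 0.78 for HLA-C (0.76 and -0.02), 0.53 for B2M (0.39 and -0.14) and 0.20 for TAPBP (0.07 and -0.13). With VER it was -0.83 for B2M (-0.20 and 0.63) and -0.55 for NLRC5 (-0.26 and 0.30), the latter on an estimated 13 and 21 fragments in CWR22Rv1. HLA-C and TAPBP had a change near 0 in 1 of the lines, and its sign turned under another scaling. With APO in CWR22Rv1, HLA-E stood at -0.006 and B2M at -0.027 with scaling to the same total. The counting interval of the HLA-E ratio there, 0.834 to 1.01, included 1. With VER the interval of the NLRC5 ratio included 1 in both lines, at 0.624 to 1.09 in C4-2B MDVR and 0.697 to 3.17 in CWR22Rv1.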

How the results depend on the processing

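With the inhibitors, the number of members called changed with the threshold. In C4-2B MDVR with APO it went from 1 to 7 at 1.2-fold and 6 at 1.5-fold, from 1 with VER in C4-2B MDVR to 6 and 3, from 2 with APO in CWR22Rv1 to 5 and 4, and from 1 with VER in CWR22Rv1 to 8 and 5. Between the lines it was 5, 7 at 1.2-fold and 5 at 1.5-fold. Scaling to the same total, or to the same total outside the mitochondrial chromosome, left 0 members with APO in C4-2B MDVR, where HLA-B stood at 0.89 and 0.88. These scalings moved the median of genes above 1 FPKM there to -0.13 and -0.15, and with APO in CWR22Rv1 to 0.11 and -0.16. With APO in CWR22Rv1 a pseudocount of 1, FPKM above 0.1 in both libraries, or FPKM above 1 in at least 1 library left 1 member, TAP2, while a pseudocount of 0.01 and scaling to the same total gave 3, NLRC5 being added at 1.38 and 1.17. With VER in CWR22Rv1 a pseudocount of 0.01, scaling to a median ratio of 1 and scaling to the same total each gave 2, HLA-F being added. The signs that turned were TAPBP with APO in C4-2B MDVR (-0.0747 and -0.0874 under the total and non-mitochondrial scalings) and HLA-C with APO in CWR22Rv1 (0.0934 with scaling to the same total, and 0.0747 for the summed heavy chains). The number between the lines with DMSO went from 5 to 4 when NLRC5 stood at -0.91 with a pseudocount of 1, or TAP2 at -0.96 with the median ratio and -0.95 with the non-mitochondrial scaling, or when FPKM above 0.1 in both libraries was required, which removed HLA-F. Without replicates no value has an error between cultures, and the depth leaves HLA-F in CWR22Rv1 within a few fragments of 0.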
